A study of Homo sapiens with 60 samples.

Results

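The earliest dose response in the series was read from 6 of its 60 RNA-seq libraries: 3 from cells given 0.2 nM of the dimerizer AP20187 for 1 h and 3 from cells given 0.01 nM for 1 h. The libraries were chosen by labelled dose and time alone. The sample labels give the higher dose to 3 decimals, and the design text rounds it to 0.2 nM, as is done here. The cells were U2OS, an established human osteosarcoma line, carrying Dmr-PERK, in which the eIF2α kinase domain of mouse PERK is joined to the DmrB domain that AP20187 brings together. Every group in the series, the untreated ones included, carried this construct and had the genotype label WT. Replicates came from wells of a plate, and it was not stated that they were separate cultures of the 1 stably expressing line, so p-values refer only to the variation among these samples, and that variation may be technical. The dimerizer was added at staggered times before collection. No label names an untreated culture handled beside the 1 h wells. Untreated cells were labelled 0 h and came in 2 sets of 3 libraries.

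PERK is a kinase that phosphorylates the translation initiation factor eIF2α and thereby switches on the integrated stress response (ISR). Phosphorylated eIF2α slows protein synthesis overall while favouring translation of a few mRNAs, including that of the transcription factor ATF4. ATF4 then raises its target genes, among them DDIT3 (the transcription factor CHOP), CHAC1 (a glutathione-degrading enzyme), the amino acid enzyme ASNS, the pseudokinase TRIB3, and PPP1R15A, the phosphatase subunit that returns eIF2α to its resting state. Per the series' design text, 0.01 nM was chosen to leave protein synthesis nearly intact while still inducing ATF4 protein, and 0.2 nM to reduce it in part.

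The 3 libraries at 0.01 nM held 5598803 to 7588253 estimated counts and the 3 at 0.2 nM held 7216150 to 10367667. At these depths the floor of 3 counts in a library was 0.289 to 0.536 CPM (counts scaled to a common library total). Between replicates, 8647 genes above 20 CPM had a median coefficient of variation of 5.35% at 0.01 nM and 4.29% at 0.2 nM. Mitochondrially encoded mRNA took 5.43% ± 0.139 of the counts at 0.01 nM and 4.66% ± 0.0874 at 0.2 nM (SD, n = 3), against 8.84% ± 0.615 in untreated set 1, which has a like depth and stands apart from every other group in this share, and 4.44% ± 0.053 in the deeper untreated set 2. Of 10 osteoblast-lineage markers 7 were tested, with COL1A1 at 1748 CPM and RUNX2 at 70.7 CPM at 0.01 nM. Of 8 blood and immune markers 2 were tested, CD68 and ITGAM, both under 2 CPM in each dose group.

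The comparison addressed which genes differ first between a dose that slows protein synthesis in part and one that hardly slows it. After 1 h at 0.2 nM a small set of genes stood above their level at 0.01 nM. It held the stress and early response genes CHAC1, DDIT3, DDIT4, GADD45B, JUN and IER2, and also EDN1, beside genes of other kinds. Mitochondrial mRNAs, RHOB and FOSB stood lower. Set against untreated set 1 instead, GADD45B, JUN, IER2 and EDN1 were not called at 0.2 nM. Of 18040 genes tested, 137 (0.759%) differed between the doses by the quasi-likelihood F test of edgeR at an adjusted p under 0.05. Of these, 62 (0.344%) were higher at 0.2 nM and 75 (0.416%) were lower. Most differences were small, since 53 of the 62 and 71 of the 75 were under 1.5-fold. 2 genes (0.0111%) were at least 2-fold higher, CHAC1 and the pseudogene SMURF2P1, and 4 (0.0222%) at least 2-fold lower, PKNOX2, FOSB, FGD5 and the clone-named transcript RP11-391L3.3. At an unadjusted p under 0.05 there were 2234 genes (12.4%). In 133 of the 137 the 3 values at one dose did not overlap the 3 at the other, as in 15.2% of all tested genes (7.05% with 0.2 nM above and 8.13% with it below). The number called moved with single libraries. It was 256 without 0.01 nM replicate 1, 59 without 0.01 nM replicate 2 and 50 without 0.01 nM replicate 3. At the higher dose it was 51 without 0.2 nM replicate 1, 100 without 0.2 nM replicate 2 and 91 without 0.2 nM replicate 3. On length-scaled values (TPM plus 1, tested with limma) 191 genes were higher and 33 lower, with the median of all genes at 0.06 in place of -0.004. Of the 137 genes, 26 (13 higher, 13 lower) were called in the same direction under all 14 alternative settings.

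**Figure D1:**
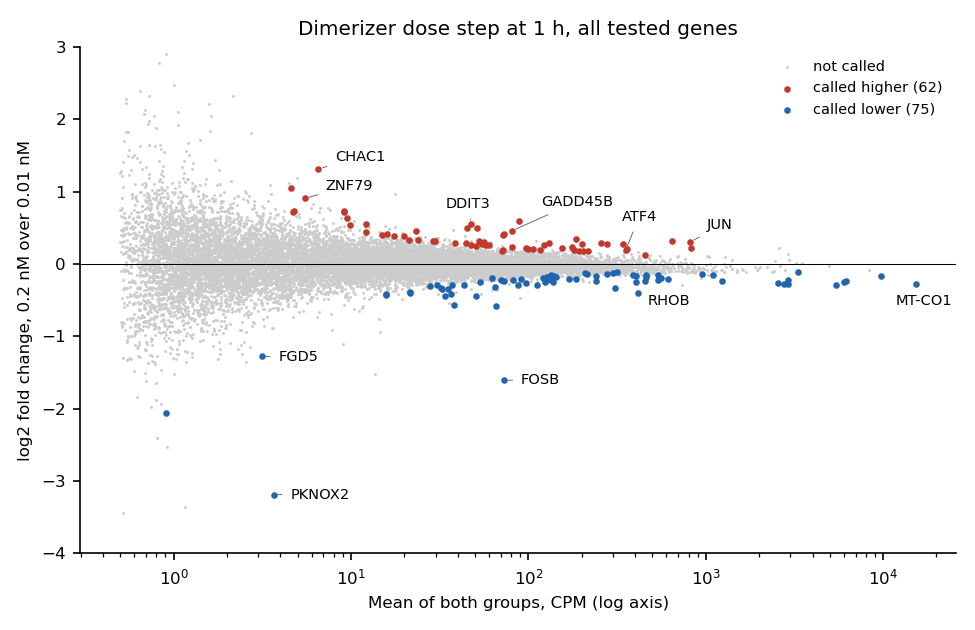
Log2 fold change between 0.2 and 0.01 nM at 1 h (y axis) against the mean of both dose groups in CPM (x axis, log scale), 1 point per tested gene with a mean above 0.5 CPM; red and blue points are the 62 genes called higher and the 75 called lower. CHAC1 stands above the other called genes at 1.31, and PKNOX2 and FOSB lie lowest among the labelled ones.

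CHAC1, on chr15:40952962-40956519 (GRCh38), held 3.30, 4.42 and 3.69 CPM in the 3 libraries at 0.01 nM and 11.4, 8.42 and 8.12 CPM at 0.2 nM. All 3 libraries at the higher dose lay above all 3 at the lower, and the log2 fold change was 1.31 (SE 0.162, edgeR adjusted p = 2.91e-07). DDIT3, on chr12:57516588-57521737, stood at 34.9, 41.9 and 38 CPM at 0.01 nM and at 49.6, 58.3 and 61.8 CPM at 0.2 nM. The groups again did not overlap, with a log2 fold change of 0.55 (SE 0.0949, edgeR adjusted p = 0.000315). DDIT4, which restrains the growth kinase complex mTORC1, on chr10:72273920-72276036, went from 50.4, 37.5 and 39.8 CPM to 62.8, 60.5 and 57.1 CPM. Its log2 fold change was 0.50 (SE 0.0837, edgeR adjusted p = 0.000178), and replicate 1 was the highest library at each dose.

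ATF4 mRNA itself, on chr22:39519695-39522685, was higher by a small amount: 336, 332 and 322 CPM at 0.01 nM against 369, 388 and 376 CPM at 0.2 nM. The log2 fold change was 0.19 (SE 0.036, edgeR adjusted p = 0.00115), and no library crossed between the groups. PPP1R15A, on chr19:48872392-48876057, had 109, 109 and 119 CPM at 0.01 nM and 131, 134 and 139 CPM at 0.2 nM. Its log2 fold change of 0.27 (SE 0.0585) had an edgeR adjusted p of 0.00996, and the call was lost without 0.01 nM replicate 2 or 0.2 nM replicate 3 (adjusted p up to 0.0899). SESN2, a stress-induced regulator of mTORC1 and the remaining called member of the list of core ISR genes (picked here after its values were seen), rose by a log2 fold change of 0.26 (SE 0.068, edgeR adjusted p = 0.0431). That call was lost in 5 of the 6 fits that left out 1 library, all but the one without 0.2 nM replicate 2 (adjusted p up to 0.168).

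Those 6 genes were the called members among 25 core ISR genes, all tested, and none was called lower. The median log2 fold change of the 25 was 0.09, beside -0.004 over all tested genes, and 20 were above 0. The other 19 held several textbook ATF4 targets. ASNS had 52.6, 48 and 48 CPM at 0.01 nM and 53.2, 45.7 and 39.6 CPM at 0.2 nM, with a log2 fold change of -0.09 (edgeR adjusted p = 0.726). TRIB3 had means of 21.6 CPM at each dose (log2 fold change 0.02, adjusted p = 0.981). ATF3, a stress-induced transcription factor, had means of 531 and 574 CPM (0.11, adjusted p = 0.543). No gene was called among 22 for amino acid synthesis and transport (median 0.01) or among 20 cytosolic tRNA synthetases (median -0.02). EIF2AK3, the gene of PERK, had 628, 668 and 651 CPM at 0.01 nM and 619, 625 and 623 CPM at 0.2 nM (log2 fold change -0.06, edgeR adjusted p = 0.458). Reads of the mouse kinase domain in the construct may be counted there, so the endogenous gene and the construct cannot be told apart.

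**Figure D2:**
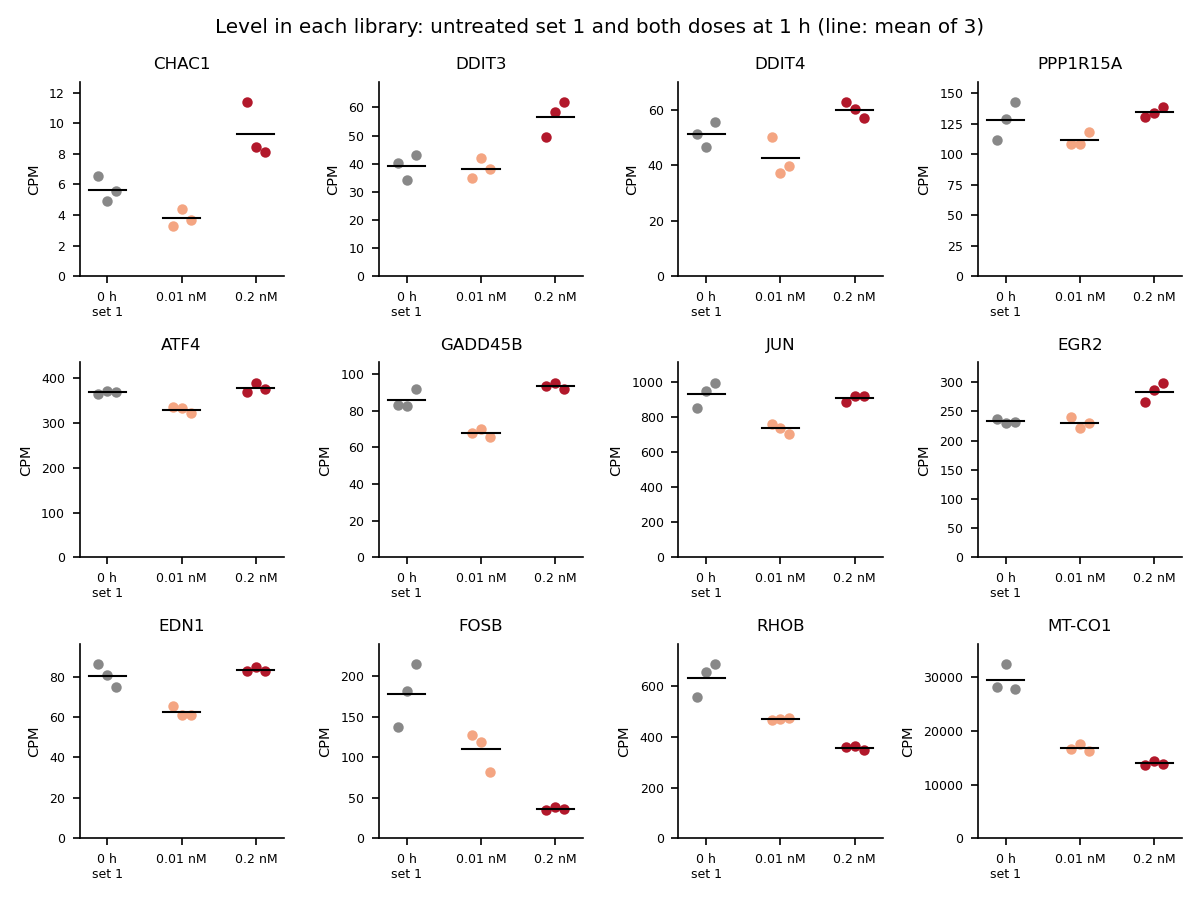
Level in CPM (y axes, starting at 0) of 12 genes in each library of untreated set 1, 0.01 nM at 1 h and 0.2 nM at 1 h, with the mean of 3 as a line. CHAC1 at 0.2 nM lies between 8.12 and 11.4 CPM, above every library of the other groups shown, and the MT-CO1 levels at both doses lie below those of untreated set 1.

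Promoter sequences were read for the called genes because ATF4 and its partners bind known short sequences. RefSeq's promoter table (GRCh38.p14, from 250 bases before to 50 after the start site) held 47 of the 62 higher genes and 41 of the 75 lower ones. Sites outside these windows were not searched, so a gene without a match may still have one farther away. On either strand, the C/EBP-ATF response element (CARE, TGATGNAA) was in 2 of the 47 windows, those of CHAC1 and PLCE1, in 0 of the 41, and in 1.75% of the 11287 windows of tested genes. The cAMP response element (CRE, TGACGTCA), a palindrome bound by ATF and CREB family factors, was in 4 of the 47 (8.51%), in 2 of the 41 (4.88%) and in 3.11% of the windows of tested genes. The letters TGANTCA, an AP-1 site, were in 3 of the 47, in 7 of the 41 and in 5.06% of the windows of tested genes. The CArG box bound by SRF was in 1 of the 47 (SRF itself), in 1 of the 41 (GSTP1, named to complete the count) and in 1.02% of the windows of tested genes. The 5 windows below are those of CHAC1, the gene with the largest rise, and of the 4 higher genes with a CRE. Each gives the 250 bases before the start site, 5′ to 3′ on the gene's strand, with the motif in capitals (CARE in CHAC1, where it reads TTGCATCA on this strand, and CRE in the others).
CHAC1, chr15:40953221-40953470, plus strand: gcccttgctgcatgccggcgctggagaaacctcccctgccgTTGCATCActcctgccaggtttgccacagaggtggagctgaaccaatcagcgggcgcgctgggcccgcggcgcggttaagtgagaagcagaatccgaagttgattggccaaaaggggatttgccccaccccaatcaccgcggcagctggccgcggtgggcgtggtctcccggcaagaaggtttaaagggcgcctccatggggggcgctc
PPP1R15A, chr19:48872171-48872420, plus strand: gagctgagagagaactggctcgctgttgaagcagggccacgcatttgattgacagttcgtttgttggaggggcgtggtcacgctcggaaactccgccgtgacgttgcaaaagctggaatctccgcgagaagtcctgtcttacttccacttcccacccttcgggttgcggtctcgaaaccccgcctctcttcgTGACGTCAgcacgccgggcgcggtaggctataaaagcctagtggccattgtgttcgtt
DUSP1, chr5:172771196-172771445, minus strand: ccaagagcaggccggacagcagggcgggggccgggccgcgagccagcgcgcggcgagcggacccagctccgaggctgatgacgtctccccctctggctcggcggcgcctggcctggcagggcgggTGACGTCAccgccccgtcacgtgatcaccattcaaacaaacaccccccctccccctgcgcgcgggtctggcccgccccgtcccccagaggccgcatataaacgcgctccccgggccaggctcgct
IFRD1, chr7:112450258-112450507, plus strand: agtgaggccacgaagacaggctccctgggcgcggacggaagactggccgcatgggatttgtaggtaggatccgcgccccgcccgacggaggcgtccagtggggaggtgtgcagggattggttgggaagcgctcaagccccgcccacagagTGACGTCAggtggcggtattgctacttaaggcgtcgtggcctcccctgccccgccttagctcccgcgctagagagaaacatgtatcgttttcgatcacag
FBXO34, chr14:55271171-55271420, plus strand: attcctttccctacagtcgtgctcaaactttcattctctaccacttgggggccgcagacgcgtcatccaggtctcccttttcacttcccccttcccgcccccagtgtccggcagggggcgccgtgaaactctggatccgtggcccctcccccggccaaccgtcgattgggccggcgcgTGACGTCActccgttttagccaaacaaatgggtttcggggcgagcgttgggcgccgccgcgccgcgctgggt

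The CARE of CHAC1 begins at -209 from the start site of its RefSeq window. The CREs begin at -58 in PPP1R15A, -125 in DUSP1, -100 in IFRD1 and -72 in FBXO34, counted the same way. Which start sites these cells use was not tested. IFRD1, a transcriptional coregulator named here for its promoter, had 55.4, 46.8 and 48.2 CPM at 0.01 nM and 61.8, 64.3 and 59.4 CPM at 0.2 nM. Its log2 fold change was 0.30 (SE 0.0591, edgeR adjusted p = 0.00241), lost without 0.01 nM replicate 2 (adjusted p = 0.0861). The change of FBXO34, an F-box protein also named for its promoter, was 0.25 (SE 0.0635, edgeR adjusted p = 0.0426), and it was lost in 4 of the 6 fits that left out 1 library, those without 0.01 nM replicate 2 or 3 or 0.2 nM replicate 1 or 2 (adjusted p up to 0.31).

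Immediate early genes, which are transcribed within minutes of a signal without new protein, split by dose in both directions. Of 29 tested, 5 were higher at 0.2 nM (IER2, JUN, EGR2, MYC and SRF) and 3 lower (FOSB, KLF2 and NR4A1), with a median log2 fold change of 0.10 beside -0.004 over all genes. JUN, an AP-1 subunit on chr1:58780788-58784327, had 759, 737 and 704 CPM at 0.01 nM and 885, 917 and 916 CPM at 0.2 nM. The groups were well apart, with a log2 fold change of 0.30 (SE 0.0525, edgeR adjusted p = 0.000304). IER2, a nuclear immediate early protein, had 589, 568 and 569 CPM at 0.01 nM and 720, 713 and 709 CPM at 0.2 nM. Its change of 0.31 (SE 0.0385, edgeR adjusted p = 2.91e-07) rested on replicates that differed little within each dose.

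The transcription factors EGR2, MYC and SRF, named because they complete the count, changed by 0.30, 0.28 and 0.18. Their edgeR adjusted p-values were 0.0286, 0.0014 and 0.0233. The call of MYC was lost without 0.01 nM replicate 3 or 0.2 nM replicate 1 (adjusted p up to 0.082), that of SRF without those libraries or 0.01 nM replicate 2 (up to 0.325), and that of EGR2 without 0.01 nM replicate 2 or 3 or 0.2 nM replicate 2 or 3 (up to 0.15). The 3 values of SRF at 0.01 nM, 214, 172 and 187 CPM, overlapped those at 0.2 nM, 226, 209 and 213 CPM. DUSP1, a phosphatase that switches off MAP kinases, went from 848, 753 and 684 CPM to 914, 866 and 878 CPM (log2 fold change 0.22 with SE 0.0549, edgeR adjusted p = 0.0417), a call lost in 5 of the 6 fits that left out 1 library, all but the one without 0.01 nM replicate 1 (up to 0.388). Of 13 ERK feedback genes tested, DUSP1 was higher and the transcription factor ETV4 lower (-0.27, edgeR adjusted p = 0.0496). The ETV4 call was lost in 4 of those fits, without 0.01 nM replicate 2 or 3 or 0.2 nM replicate 1 or 3 (up to 0.342). None of 24 NF-kB and inflammatory genes tested was called (median 0.04).

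FOSB, which encodes another AP-1 subunit (chr19:45467995-45475179), moved the opposite way from JUN. It had 128, 119 and 82 CPM at 0.01 nM and 34.9, 38.9 and 35.8 CPM at 0.2 nM. The lowest library at 0.01 nM was still above all 3 at 0.2 nM, and the log2 fold change was -1.61 (SE 0.217, edgeR adjusted p = 1.46e-06). On TPM with 0.1 added, tested with limma, the call was lost (adjusted p = 0.14). In untreated set 1 FOSB stood at 178 ± 39 CPM (SD, n = 3). The set 1 mean was above those of both dose groups. KLF2, a Krüppel-like transcription factor, fell by 0.32 (SE 0.071, edgeR adjusted p = 0.00997), from 71.4, 77.8 and 68.2 CPM to 61.7, 58.3 and 53.6 CPM. The KLF2 call was lost without 0.01 nM replicate 2 or 0.2 nM replicate 3 (adjusted p up to 0.142), and on the TPM scales, where the change was -0.08 (limma adjusted p up to 0.832). NR4A1, an orphan nuclear receptor, fell by 0.23 (SE 0.056, edgeR adjusted p = 0.0334), a call lost in 5 of the 6 fits that left out 1 library, all but the one without 0.01 nM replicate 3 (up to 0.159).

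RHOB, a short-lived small GTPase (chr2:20447074-20449445), had 466, 472 and 472 CPM at 0.01 nM and 358, 363 and 349 CPM at 0.2 nM. Its groups were far apart relative to their spread, with a log2 fold change of -0.40 (SE 0.0554, edgeR adjusted p = 2.74e-06). PKNOX2, a homeobox gene (chr11:125164687-125433389), had 7.28, 7.8 and 4.75 CPM at 0.01 nM and 0.745, 0.668 and 0.762 CPM at 0.2 nM. Its log2 fold change was -3.19 (SE 0.416, edgeR adjusted p = 7.21e-07). In untreated set 1 PKNOX2 stood at 40.8 ± 7.24 CPM (SD, n = 3), while untreated set 2 was at 0.773 ± 0.219 CPM. The means of the other 16 dose and time groups lay between 0.432 and 1.4 CPM, so only untreated set 1 and 0.01 nM at 1 h held more than that. FGD5, an exchange factor for the GTPase CDC42, went from 3.43, 4.94 and 5.1 CPM to 2.14, 1.6 and 1.65 CPM (log2 fold change -1.28 with SE 0.235, edgeR adjusted p = 0.000917). On the TPM scales, tested with limma, the FGD5 call was lost (-0.47 with 1 added and -0.85 with 0.1 added, adjusted p = 0.178 and 0.142).

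The mitochondrially encoded mRNAs were lower together: 11 of 13 were called lower and none higher. The median log2 fold change was -0.24, the range was -0.29 to -0.11, and the median of all genes was -0.004. MT-CO1, a subunit of cytochrome c oxidase, had 16700, 17606 and 16200 CPM at 0.01 nM and 13671, 14314 and 13853 CPM at 0.2 nM (log2 fold change -0.27 with SE 0.0322, edgeR adjusted p = 1.58e-07). MT-ND1, of respiratory complex I, changed by -0.28 (edgeR adjusted p = 4.18e-09), and MT-CO2 by -0.29 (edgeR adjusted p = 6.23e-07). Of 22 nuclear-encoded respiratory chain subunits 1 was called lower, COX7C (-0.20, edgeR adjusted p = 0.0352), and the median was -0.08. The COX7C call was lost without 0.01 nM replicate 3 or 0.2 nM replicate 1 or 2 (adjusted p up to 0.337). In bulk RNA, less of these transcripts per cell and fewer cells that hold much of them cannot be told apart. MT-CO1 stood at 29497 ± 2531 CPM in untreated set 1 and 14608 ± 298 CPM in untreated set 2 (SD, n = 3). The 0.01 nM group at 1 h therefore lay between untreated set 1 and 0.2 nM in the mitochondrial mRNAs named here as in PKNOX2 and FOSB, and the part of this shared order in the dose difference was not tested.

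**Figure D3:**
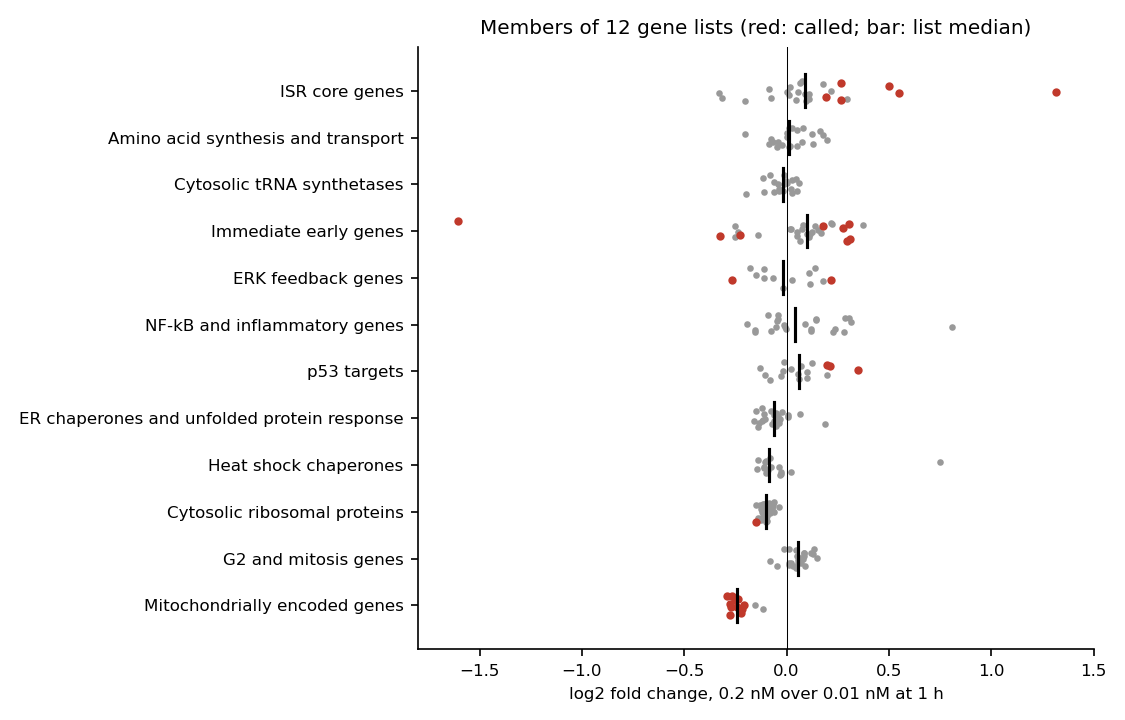
Log2 fold change between 0.2 and 0.01 nM at 1 h (x axis) for each tested member of 12 gene lists (y axis), with called genes in red and the list median as a bar. The mitochondrially encoded genes lie to the left with a median of -0.24 and 11 of 13 called, and among the ISR core genes CHAC1 lies farthest to the right.

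Several growth arrest and signalling genes were higher at 0.2 nM. GADD45B, a stress sensor that acts on MAP kinase signalling (chr19:2476122-2478259), had 67.9, 70.1 and 65.6 CPM at 0.01 nM and 93.7, 95 and 91.8 CPM at 0.2 nM. The difference was larger than the spread within either dose (log2 fold change 0.46 with SE 0.0598, edgeR adjusted p = 7.21e-07). GADD45A, a related growth arrest gene, had 171, 172 and 148 CPM at 0.01 nM and 217, 212 and 198 CPM at 0.2 nM (log2 fold change 0.35 with SE 0.0594, edgeR adjusted p = 0.000277). With the p53 inhibitor MDM2 (0.19, edgeR adjusted p = 0.00464) and the BCL2-family gene PMAIP1 (0.21, edgeR adjusted p = 0.0489), it was 1 of 3 genes called higher among 17 p53 targets tested, whose median was 0.06. The PMAIP1 call was lost in each of the 6 fits that left out 1 library (adjusted p up to 0.145) and the MDM2 call without 0.01 nM replicate 2 or 0.2 nM replicate 1 (up to 0.0874).

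EDN1, which encodes the secreted peptide endothelin-1 (chr6:12290363-12297194), had 65.3, 60.9 and 61 CPM at 0.01 nM and 82.6, 84.9 and 82.6 CPM at 0.2 nM (log2 fold change 0.42 with SE 0.0759, edgeR adjusted p = 0.000841). HES1, a transcriptional repressor downstream of Notch, had 69, 58.7 and 57.2 CPM at 0.01 nM and 83.3, 79 and 82 CPM at 0.2 nM (log2 fold change 0.40 with SE 0.0756, edgeR adjusted p = 0.0014). HES1 and ID1, an inhibitor of differentiation factors (0.28, edgeR adjusted p = 0.00165), were the 2 called among 20 signalling feedback regulators, both higher. The ID1 call was lost without 0.01 nM replicate 2 or 0.2 nM replicate 1 (adjusted p up to 0.0861). FBXO5, an inhibitor of the anaphase-promoting complex, had 36.1, 38.5 and 37.6 CPM at 0.01 nM and 56.5, 49.2 and 51.9 CPM at 0.2 nM (log2 fold change 0.50 with SE 0.0717, edgeR adjusted p = 6.16e-06). CCDC144NL, a gene of little known function, had 82.7, 65.2 and 65.3 CPM at 0.01 nM and 120, 103 and 97.1 CPM at 0.2 nM (log2 fold change 0.59 with SE 0.0874, edgeR adjusted p = 1.03e-05). No member of the list of 24 G2 and mitosis genes was called.

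The calls of several other genes among the 15 largest rises were lost when single libraries were left out. ZNF79, a zinc finger gene, had 4.53, 4.03 and 2.64 CPM at 0.01 nM and 5.77, 6.68 and 9.39 CPM at 0.2 nM (log2 fold change 0.91 with SE 0.186, edgeR adjusted p = 0.00425), a call lost without replicate 3 of either dose (adjusted p up to 0.106). The sphingosine-1-phosphate receptor gene S1PR5 (0.73), the plakin gene EPPK1 (0.72), the zinc finger genes ZBTB49 (0.72) and ZNF250 (0.41), the centriole genes CEP83 (0.53) and POC5 (0.41), and the kinase gene NUAK2 (0.46) were called at edgeR adjusted p-values of 0.0124 to 0.0496. Each of these calls was lost in 3 to 6 of the 6 fits that left out 1 library (adjusted p up to 0.26), and the fits without 0.01 nM replicate 2, 0.01 nM replicate 3 and 0.2 nM replicate 1 lost all 7.

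The remaining large falls were also modest. EMP1, an epithelial membrane protein gene, had 293, 386 and 349 CPM at 0.01 nM and 273, 283 and 259 CPM at 0.2 nM. Its log2 fold change was -0.33 (SE 0.0653, edgeR adjusted p = 0.00224), a call lost without 0.01 nM replicate 2 (adjusted p = 0.134) and on the TPM scales, where the change was -0.14 (limma adjusted p up to 0.62). The synaptotagmin gene SYT12 fell by 0.44 (SE 0.0835, edgeR adjusted p = 0.00152), lost without 0.01 nM replicate 2 or 0.2 nM replicate 1 (up to 0.0559). A transcript that the deposited table names MIR24-2, which is the antisense gene ENSG00000267519 (chr19:13823880-13842928) and not the miRNA, fell by 0.45 (SE 0.0975, edgeR adjusted p = 0.00943), lost without 0.01 nM replicate 1 or 0.2 nM replicate 3 (up to 0.0795) and on the TPM scales, where the change was -0.12 (limma adjusted p up to 0.895). The transcription factor SNAI1 (-0.43), the cytokine gene IL11 (-0.42), ACSF2 (-0.41), IFT43 (-0.40), IL27RA (-0.38), LIMD2 (-0.35), CD40 (-0.34) and HAPLN3 (-0.34) were called at edgeR adjusted p-values of 0.0168 to 0.0489, and each call was lost in 3 to 6 of the fits that left out 1 library (up to 0.318), those without 0.01 nM replicate 2 and 0.01 nM replicate 3 among them. HNRNPH3, a splicing regulator singled out after its values were seen because its call held in each of the 14 alternatives, had 259, 253 and 267 CPM at 0.01 nM and 218, 217 and 226 CPM at 0.2 nM (log2 fold change -0.24 with SE 0.0375, edgeR adjusted p = 4.96e-05).

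Few members of the housekeeping lists were called. All 48 cytosolic ribosomal protein genes had a log2 fold change below 0 (median -0.10, range -0.15 to -0.04) and 1, RPL11, was called lower (-0.15, edgeR adjusted p = 0.0393), a call lost in 4 of the 6 fits that left out 1 library, without 0.01 nM replicate 2 or 3 or 0.2 nM replicate 1 or 2 (up to 0.388). On the TPM scale with 1 added 7 of the 48 were above 0, with a median of -0.03 beside 0.06 over all genes on that scale. None of 24 genes of ER chaperones and the unfolded protein response was called (median -0.06), nor any of 16 heat shock chaperones (median -0.09). Among 7 epithelial markers the keratin gene KRT18 was lower (-0.19, edgeR adjusted p = 0.00838), and that call was lost without 0.01 nM replicate 2 or 3 (up to 0.133). Of 27 ribosome biogenesis factors, RRP12 was called lower (-0.25, edgeR adjusted p = 0.0393), a call lost without 0.01 nM replicate 2 or 3 or 0.2 nM replicate 1 or 2 (up to 0.412).

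Other settings ended further calls among the 61 genes that were called and named by rule or by choice. On log2 TPM plus 1, tested with limma, 24 of the 61 were lost (adjusted p = 0.0554 to 0.878). Beside the genes given above with their TPM values these were EGR2, MDM2, FBXO34, CEP83 and ZNF250 among the higher genes, and NR4A1, ETV4, SYT12, SNAI1, IL11, ACSF2, IFT43, LIMD2, CD40, COX7C, RPL11, RRP12 and KRT18 among the lower, with the cell cycle gene CCND1 and the transcription factor gene ATF2, whose values are not described here. With 0.1 added 26 were lost, FOSB and NUAK2 being the further ones. With only the 6 libraries 32 were lost (adjusted p up to 0.293), among them SESN2, DUSP1, SRF, IFRD1, FBXO34, MDM2, PMAIP1, NR4A1, ETV4 and ZNF79, and with the 39 libraries of like depth 22 were lost (up to 0.114), SESN2 and SRF again among them. DESeq2 lost 8, EGR2 and NR4A1 among them, the fit without a filter on low counts lost 9 and RLE scaling lost 2. Under all 14 alternatives the calls were kept for CHAC1, DDIT3, DDIT4, ATF4, GADD45A, GADD45B, JUN, IER2, EDN1, HES1, FBXO5 and CCDC144NL among the higher genes, and for RHOB, PKNOX2, HNRNPH3, MT-CO1, MT-CO2, MT-ND1 and MT-ATP6 among the lower.

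The same dose step 1 h later, in 6 other libraries, gave a second reading of the 137 genes. At 2 h 1784 genes (9.89%) differed between 0.2 and 0.01 nM, 997 (5.53%) higher and 787 (4.36%) lower. Of the 62 genes higher at 1 h, 44 were called higher at 2 h and none lower. Of the 75 lower at 1 h, 40 were called lower at 2 h and 3 higher: RHOB, KLF2 and NR4A1. The 84 genes called the same way at both times were 136 without 0.01 nM replicate 1, 40 without 0.01 nM replicate 2, 32 without 0.01 nM replicate 3 and 31 without 0.2 nM replicate 1 at 1 h. The difference between the dose steps at 2 h and at 1 h passed its own edgeR test in 22 of the 137 genes, and in 225 (1.25%) of all genes. The 137 genes were chosen by the 1 h step, which enters this difference, so the shares cannot be compared. The number among the called genes was 11 without 0.01 nM replicate 2 and 14 without 0.01 nM replicate 3.

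DDIT4 showed the growth of the step most clearly, from a log2 fold change of 0.50 at 1 h to 2.02 at 2 h, when its mean was 84.5 CPM at 0.01 nM and 341 CPM at 0.2 nM. CHAC1 went from 1.31 to 2.18, DDIT3 from 0.55 to 1.20, PPP1R15A from 0.27 to 1.04 and SESN2 from 0.26 to 1.61. For each of these 5 genes the increase in the step passed the edgeR test of the difference between times (adjusted p = 1.67e-16 to 0.0104). At 0.2 nM the means of DDIT4, CHAC1, DDIT3 and SESN2 rose from 1 h to 2 h. The PPP1R15A mean went from 135 to 129 CPM at 0.2 nM and from 112 to 62.7 CPM at 0.01 nM. Some genes not called at 1 h differed at 2 h: ASNS was higher by 0.89 (SE 0.0705, edgeR adjusted p = 4.95e-15), TRIB3 by 0.99 and ATF3 by 1.53. At 0.2 nM the means of ASNS and TRIB3 rose from 1 h to 2 h, to 101 and 77.2 CPM. The ATF3 mean fell at both doses, from 531 to 125 CPM at 0.01 nM and from 574 to 360 CPM at 0.2 nM. By then 21 of the 25 core ISR genes were called higher and none lower, with a median of 0.89, and 18 of the 22 amino acid genes were higher with none lower. For RHOB the step turned from -0.40 to 0.36 (edgeR adjusted p of the difference 6.79e-09): its mean was 470 CPM at 1 h and 136 CPM at 2 h for 0.01 nM, and 356 and 174 CPM for 0.2 nM.

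**Figure D4:**
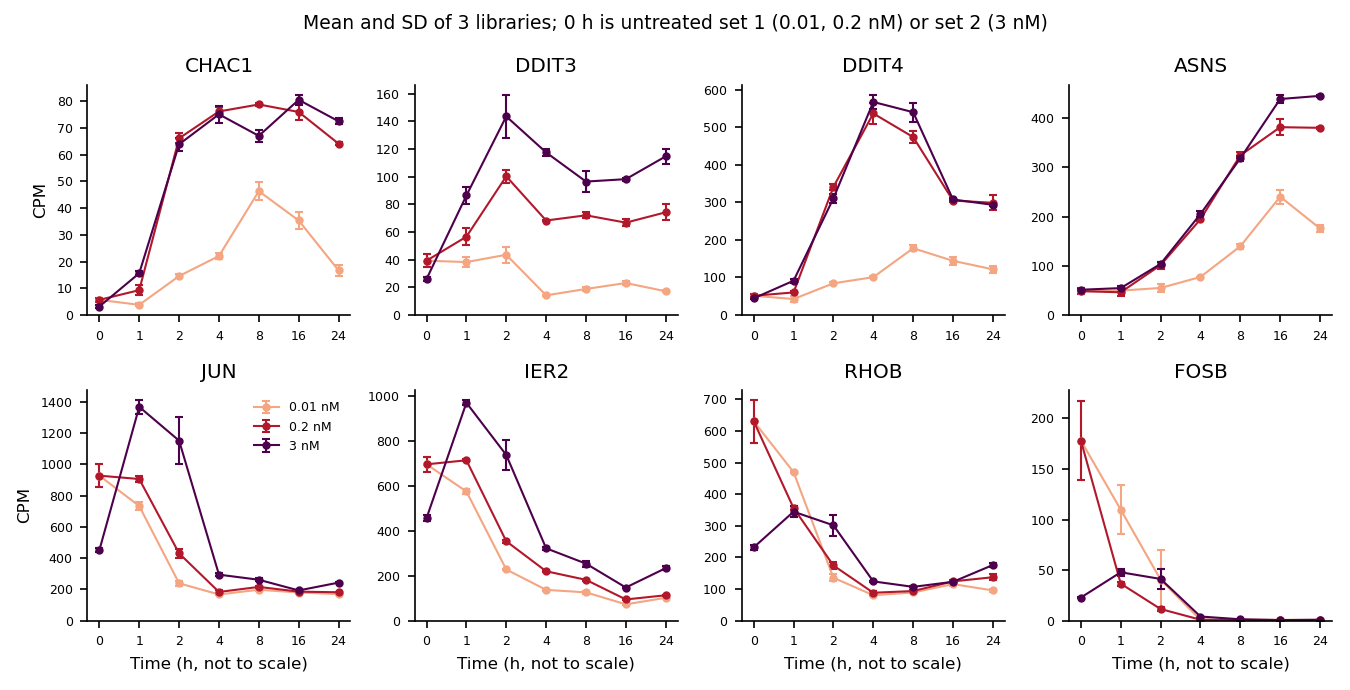
Mean level in CPM (y axes from 0, bars are SD, n = 3) of 8 genes at 0.01, 0.2 and 3 nM over time (x axis, hours, not to scale), with 0 h from untreated set 1 for the lower doses and set 2 for 3 nM. CHAC1 and DDIT4 climb after 1 h at 0.2 and 3 nM, while JUN, IER2, RHOB and FOSB at 0.01 nM are lower at 2 h than at 0 h.

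The strongest dose at the same time, in libraries that share no sample with the 6, gave another reading. Against untreated set 2, 4843 genes (26.8%) differed in cells given 3 nM for 1 h: 2289 (12.7%) stood higher and 2554 (14.2%) stood lower. Of the 62 genes higher at 0.2 nM, 53 were called higher there and none lower, and of the 75 lower genes 46 were called lower and 7 higher. Those 99 genes called the same way were 151 without 0.01 nM replicate 1, 48 without 0.01 nM replicate 2, 35 without 0.01 nM replicate 3, 34 without 0.2 nM replicate 1 and 65 without 0.2 nM replicate 3. CHAC1 was higher by 2.28, DDIT3 by 1.73, JUN by 1.60, DUSP1 by 1.31, PPP1R15A by 1.13, DDIT4 by 1.04 and ATF4 by 0.47, each with an edgeR adjusted p of 2.59e-17 or smaller. ASNS (0.09, adjusted p = 0.255) and TRIB3 (-0.01, adjusted p = 0.943) were not called at 3 nM after 1 h either. The 7 genes lower at 0.2 nM but higher at 3 nM than in set 2 were FOSB (1.07), RHOB (0.57), CH507-42P11.8 (0.54), NR4A1 (0.44), KLF2 (0.36), IL11 (0.21) and SYT12 (0.18). The direction can depend on the untreated set. KLF2 had means of 43.7 CPM at 3 nM, 34 in set 2 and 99.1 in set 1. Against the mean of both sets KLF2 was lower at 3 nM (-0.41, edgeR adjusted p = 1.71e-09). NR4A1 stayed higher by that control (0.21, edgeR adjusted p = 0.00018), but its 3 nM mean of 1393 CPM was not above set 1 at 1412 CPM. Of the 29 immediate early genes 27, KLF2 among them, were higher at 3 nM than in set 2 and none lower. That count holds for set 2 alone and was not made against the mean of both sets. By that mean JUN was higher by 1.08 and DUSP1 by 0.85. JUN had means of 451 CPM in set 2 and 928 CPM in set 1.

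**Figure D5:**
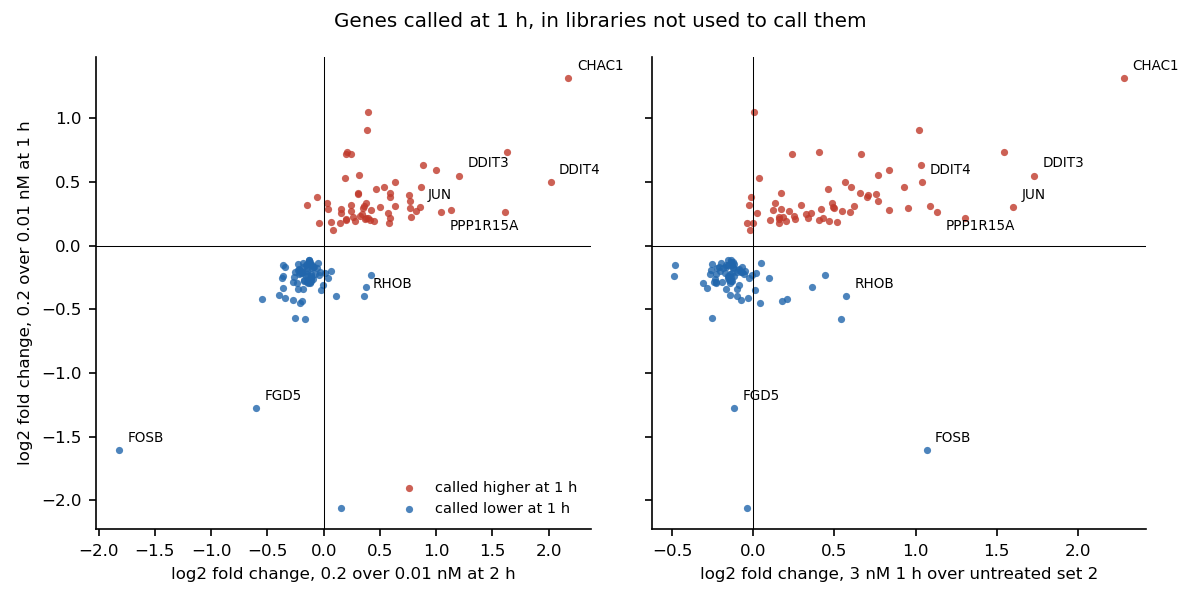
Log2 fold change between 0.2 and 0.01 nM at 1 h (y axes) of the called genes except PKNOX2, against that at 2 h (left x axis) and that of 3 nM at 1 h over untreated set 2 (right x axis). The 44 of 62 higher genes that were higher again at 2 h lie in the upper right, FOSB lies at the lower left at 2 h and on the positive side at 3 nM, and RHOB is positive in both.

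Each dose was also set beside untreated set 1, which both comparisons share. The 62 and 75 genes were chosen by the difference between these same dose libraries. Their counts here follow in part from that choice and only describe where the means lie. The order of the means was not counted over all genes. At 0.01 nM 2302 genes (12.8%) were called higher and 2809 (15.6%) lower than in that set, and at 0.2 nM 2950 (16.4%) higher and 3484 (19.3%) lower. Of the 62 genes higher at 0.2 nM, 5 were called higher and 23 lower at 0.01 nM, while at 0.2 nM 37 were called higher and 3 lower. Those 3 were MYC (-0.21), DUSP1 (-0.21) and PMAIP1 (-0.22). CHAC1, DDIT3, DDIT4, FBXO5 and CCDC144NL were called higher at 0.2 nM than in set 1. ATF4, PPP1R15A, SESN2, GADD45A, GADD45B, IER2, EDN1 and HES1 were not called there (edgeR adjusted p = 0.0748 to 0.925). In 37 of the 62 the set 1 mean lay between the means of the doses, and in 16 the means rose in the order set 1, 0.01 and 0.2 nM. JUN had a mean of 928 ± 72.5 CPM in untreated set 1, 733 ± 27.8 at 0.01 nM and 906 ± 18.1 at 0.2 nM (SD, n = 3), so its higher dose group lay within the spread of the untreated libraries. CHAC1 had 5.66 ± 0.816 CPM in untreated set 1, 3.80 ± 0.571 at 0.01 nM and 9.30 ± 1.79 at 0.2 nM. DDIT3 had 39.3 ± 4.52 CPM in untreated set 1 and 38.3 ± 3.5 at 0.01 nM, so only 0.2 nM, at 56.6 ± 6.27, stood apart. Of the 75 lower genes, 39 were called lower at 0.01 nM and 69 at 0.2 nM, and in 61 the means fell in the order set 1, 0.01 and 0.2 nM. The mitochondrial share of counts followed the same order, and its part in these counts was not tested.

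The median mean level of the 62 higher genes was 58.8 CPM and that of the 62 lower nuclear genes 126 CPM, beside 17.6 CPM over all tested genes with an annotation, and small differences are called more easily at higher counts. The median span of the gene on the chromosome was 22053 bases for the higher genes, 13189 for the lower nuclear genes and 26604 for all. Of the 137 genes 128 were protein coding, and 13 of the 75 lower genes lay on the mitochondrial chromosome, counting a ribosomal and a transfer RNA.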

How the data were processed

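Strand-specific RNA-seq libraries were made from total RNA, per the labels' protocols. The dose written here as 0.2 nM is labelled 0.195 nM. The authors deposited estimated counts per gene and TPM values (length-corrected and scaled to a fixed total); Salmon 0.9.1, FastQC 0.11.5 and GRCh38 were named, per the submitters' processing notes, without their roles. The annotation release used by the authors is not given in the sources used here. Counts were rounded, and reads shared by near-identical genes are split by estimation. All 60 libraries entered 1 fit with 20 group means (edgeR 4.0.16, R 4.3.3, TMM scaling, filterByExpr, 18040 of 57665 genes kept, 40 residual degrees of freedom). Quasi-likelihood F tests were adjusted by Benjamini-Hochberg within each contrast with a threshold of 0.05. SE is the size of the log2 fold change divided by the square root of F. CPM values use TMM-scaled library sizes. Positions came from GENCODE release 29, which matched 17921 of the tested genes, and promoters from RefSeq (GRCh38.p14).

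Named genes were the 15 largest rises and 15 largest falls with at least 2 CPM in the higher group and no overlap between groups, up to 4 called members of each of 30 lists, and 8 core ISR genes; exceptions are marked. The comparison, the lists and the named core genes were chosen with earlier results of these data known. Alternatives were size factors (RLE), no filter, a replicate block, DESeq2 1.42.0, limma 3.58.1 on log2 of the deposited TPM plus 1 or 0.1, other sets of libraries, and leaving out each of the 6 libraries. Replicate pairs differed by 1.45 to 1.94 chi-square per degree of freedom, so each library counted once. That spread does not show that replicates were separate cultures. The floors cover counting error only.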

Additional observations from a re-analysis of the deposited data

Results flagged for a closer look

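For 18 of the named genes the difference between 0.2 and 0.01 nM was not the same at 2 h as at 1 h, by edgeR's test of the difference itself (log2 fold change at 2 h minus that at 1 h, all 60 libraries, n = 3 per group). Among ISR genes the step grew by 1.52 for DDIT4 (adjusted p = 3.52e-16), 1.35 for SESN2, 0.86 for CHAC1, 0.78 for PPP1R15A, 0.66 for DDIT3 and 0.26 for ATF4. The step also grew for members not called at 1 h, by 1.42 for ATF3, 0.98 for ASNS and 0.97 for TRIB3. From 1 h to 2 h the ATF3 mean fell at both doses, and that of PPP1R15A did not rise at either. Among growth arrest, early response and feedback genes the step grew by 0.85 for MYC, 0.55 for JUN, 0.42 for GADD45A, 0.37 for DUSP1 and 0.32 for IER2. From 1 h to 2 h the means of JUN, DUSP1 and IER2 fell at both doses, while those of MYC and GADD45A rose at 0.2 nM. JUN went from 733 to 238 CPM at 0.01 nM and from 906 to 430 CPM at 0.2 nM. The direction turned for RHOB, KLF2 and NR4A1, which were lower at 0.2 nM at 1 h and higher at 2 h. The change in the step was 0.76, 0.70 and 0.65 for these genes. For PKNOX2 it was 3.58 (adjusted p = 0.00184), where both doses at 2 h stood at 0.902 and 1.18 CPM and the value rests on the level at 0.01 nM after 1 h.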

How the results depend on the processing

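The number of genes called was within 1.5 times 137 with RLE size factors (134), DESeq2 (161) and the replicate block (142). It was also within that range without 0.2 nM replicate 2 (100) and, at its edge, on log2 TPM plus 0.1 (205). Without the filter on low counts it was 248 (150 higher, 98 lower), and 67 of those genes differed between times. On log2 TPM plus 1, limma called 224 (191 higher, 33 lower), and with 0.1 added 205 (177 higher, 28 lower). With the 6 libraries alone it was 62 (27 higher, 35 lower), and with the 39 of like depth 72 (37 higher, 35 lower), 49 of them called the same way at 2 h. Leaving out 1 library gave 50 to 256 called genes, 20 to 109 higher and 29 to 147 lower. The genes called the same way at 2 h then numbered 31 to 136, those called the same way at 3 nM 34 to 151, and those that differed between times 11 to 29. Signs turned only for named genes that were not called: TRIB3 ranged from -0.12 to 0.0899 and ASNS from -0.22 to 0.0085 with 1 library left out. On log2 TPM plus 1 ASNS was at 0.0442 and EIF2AK3 at 0.0274, and with 0.1 added at 0.0448 and 0.0274; the median of all genes stood at 0.06 and 0.07 on those scales, above both. The cause of each shift was not tested beyond the smaller number of libraries or larger number of genes that a setting entails. Same-numbered replicates of the doses had deviations that correlated by 0.16, 0.01 and -0.02, so the labels' numbers were not taken to pair samples. Fitted as a replicate block they gave 142 calls (64 higher, 78 lower), and 1 named gene lost its call. Depth limits genes of a few CPM.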
